A study of Mus musculus with 15 samples.

Results

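Chromatin isolation by RNA purification (ChIRP) retrieves an RNA from cross-linked chromatin with biotinylated oligos and sequences the DNA that comes with it. In brain from Snord116del +/- mice, which lack the paternal Snord116 cluster that encodes the long non-coding RNA 116HG, 659 of the 1280 peaks called with 116HG oligos overlapped by at least 1 bp a peak called with non-specific control (NSC) oligos. These 659 shared peaks are 51.5% of the 116HG list (exact 95% interval 48.7 to 54.3%, counting error only) and lie over 671 of the 3418 NSC peaks, or 19.6%. They were chosen by measured values, the positions of peaks that passed the fold limit in both deletion libraries, and so their overlap and folds are a description. Beside them stand the other 621 peaks of the 116HG list and 2747 peaks of the NSC list that overlap no peak of the other oligo set.

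The series holds 5 lists with 97524 peaks in all, from 1 library each: 116HG oligos on WT C57BL/6J brain (replicates 1 and 2, with 78033 and 11145 peaks), NSC oligos on WT brain (3648 peaks), and the 2 deletion libraries, strain B6(Cg)-Snord116tm1.1Uta/J. All were adult brain, with 1 hemisphere in each chromatin preparation. Peaks of every list, those of the deletion brain included, were called against an input library of WT brain, and only peaks more than 20-fold over that input were kept. RNA-seq of adult cortex was deposited for 3 WT and 2 Snord116del mice at Zt+6 and for 2 and 2 at Zt+16 (hours after lights on), as 1 value per gene and group. With 1 library of each kind in deletion brain there was no replicate to test against, so no test was made. The deletion, the WT input used for deletion brain and any other property that differs between the WT and deletion libraries cannot be told apart. The lists hold no reads, but the paper gives aligned and total reads of each library. By those counts both deletion libraries had more aligned reads than the WT ChIRP libraries, and a larger share of their reads aligned. The part of this in the differences between WT and deletion lists was not tested. Intervals here cover counting error over peaks that may share sequence.

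L1 elements are transposons of the mouse genome that copy themselves through RNA. A full-length mouse L1 element begins with a promoter made of a row of tandem repeats of about equal length. These repeats, called monomers, are rich in CpG dinucleotides. A pair of open reading frames follows, of which the second encodes the reverse transcriptase. Monomers of different L1 subfamilies (Tf, Gf and A) differ in sequence.

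Most of the shared peaks were alike in sequence. Of the 652 on placed chromosomes, 571 (87.6%) matched another shared peak over at least 100 bp at 80% identity or more, and the families of alike peaks held 391, 87, 37, 17, 7, 6 and 6 members, followed by smaller ones. Within the 3 largest families the sequence repeated itself with a commonest period of 212, 206 and 208 bp. The unit of each period is printed here because these sequences carry most of the shared peaks. They were read from NCBIM37 (mm9), at chr5:28920101-28920312 on the minus strand, and at chr1:63932795-63933000 and chr7:92908752-92908959 on the plus strand. Capitals mark the 8 letters GCCATCTT, whose reverse complement is the core of the sequence recognised by the transcription factor YY1.
L1 unit 1: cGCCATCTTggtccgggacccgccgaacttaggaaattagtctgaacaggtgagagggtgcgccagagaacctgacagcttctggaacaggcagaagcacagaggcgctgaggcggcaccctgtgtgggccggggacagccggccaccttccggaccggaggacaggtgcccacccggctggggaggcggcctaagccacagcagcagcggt
L1 unit 2: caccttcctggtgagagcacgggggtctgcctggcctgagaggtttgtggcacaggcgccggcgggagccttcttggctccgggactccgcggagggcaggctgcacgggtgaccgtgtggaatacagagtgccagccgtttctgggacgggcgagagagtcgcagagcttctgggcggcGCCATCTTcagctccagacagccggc
L1 unit 3: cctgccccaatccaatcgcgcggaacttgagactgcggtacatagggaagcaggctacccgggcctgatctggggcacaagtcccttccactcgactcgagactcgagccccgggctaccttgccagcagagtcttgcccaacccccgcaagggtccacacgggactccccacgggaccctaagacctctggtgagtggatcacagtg

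No repeat annotation was at hand, and the names rest on 2 measurements. Open reading frames of at least 1000 codons followed 47.9% of the 4262 arrays of unit 1 in the genome on the strand printed. They followed 21.0% of the 1791 of unit 2 and 31.1% of the 4532 of unit 3. On the opposite strand they followed 22, 2 and 9 of these arrays. The strand printed was chosen as the side with the longer median reading frame, so it was bound to lead. The contrast between the strands is therefore a description. The longest reading frame behind arrays of unit 1 that hold a shared peak had a median of 1281 codons. From general knowledge of their sequence, unit 1 is the monomer of Tf, unit 2 that of Gf and unit 3 that of A elements. Each unit was taken from a shared peak, so shared peaks are placed at some advantage when identity to the unit is compared.

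Unit 1 lay under 369 of the 652 shared peaks (56.6%, interval 52.7 to 60.4%), unit 2 under 80 (12.3%) and unit 3 under 37 (5.68%). Together the L1 units lay under 486 (74.5%, 71.0 to 77.8%). The other 166 held none of the units. The share at L1 units was lower in both other sets of deletion peaks, at 45.1% of the other 116HG peaks (41.1 to 49.1%) and 34.7% of the other NSC peaks (32.9 to 36.5%). The units came from the largest families of the shared peaks, and families were not sought among the other peaks. This comparison therefore favours the shared peaks and is a description. In WT brain the L1 units were at 13 of 3378 NSC peaks (0.385%), at 23 of 10664 peaks of 116HG replicate 2 (0.216%) and at 0 of 77619 peaks of 116HG replicate 1. The 3 L1 promoter units were common in the deletion lists with either set of oligos and rare in each WT list, and other parts of L1 elements were not searched for.

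**Figure D1:**
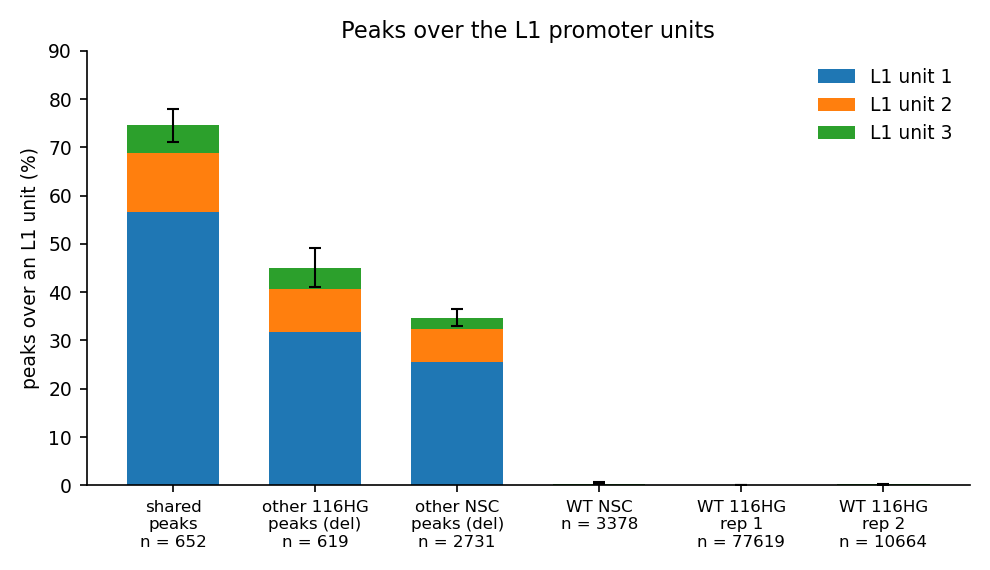
Share of peaks (%, vertical axis) that lie over each L1 unit, stacked by unit, for the shared peaks, the other peaks of both deletion lists (del) and the 3 WT lists; bars on the total are exact 95% intervals and n is the number of peaks on placed chromosomes. The shared peaks stand at 74.5%, the other deletion peaks at 45.1 and 34.7%, and each WT list below 1%.

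The most enriched shared peak at unit 1, chrX:41033193-41033471, was 57.6-fold over input with 116HG oligos and 63.1-fold with NSC oligos. It is printed because it shows how a peak runs over more than 1 copy of the unit, here in reverse, with the reverse complement of GCCATCTT in capitals.
chrX:41033193-41033471: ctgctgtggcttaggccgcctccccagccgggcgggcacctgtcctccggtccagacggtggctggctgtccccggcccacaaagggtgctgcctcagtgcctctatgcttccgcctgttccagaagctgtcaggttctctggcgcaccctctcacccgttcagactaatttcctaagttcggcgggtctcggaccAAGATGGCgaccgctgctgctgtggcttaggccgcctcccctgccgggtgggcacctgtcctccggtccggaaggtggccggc
The letters GCCATCTT were found on either strand in the middle 300 bases of 59.0% of the shared peaks, of 32.6% of the other 116HG peaks, of 27.8% of the other NSC peaks and of 2.69% of the 8527783 windows of 300 bases that tile the genome. Among shared peaks they were in 85.1% of those at unit 1, 64 of 80 at unit 2 and 0 of 37 at unit 3, whose printed unit does not hold them. A match is a description of the sequence only.

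Only a part of the genome's L1 promoter arrays held a shared peak: 349 of the 4262 arrays of unit 1 (8.19%), 76 of the 1791 of unit 2 (4.24%) and 36 of the 4532 of unit 3 (0.794%). The share was higher in longer arrays. Of unit 1 arrays with 1 copy 3.49% held one, with 2 copies 5.24%, with 3 or 4 copies 9.75% and with 5 or more 20.9% (interval 17.2 to 24.9%). For unit 2 the shares were 0.913, 4.06 and 14.9%, and 19 of 76 arrays of 5 or more copies; for unit 3 they were 0, 0.184, 1.04 and 3.00%. The arrays with a shared peak were also closer to the printed unit, with a median identity of 97.2% for unit 1 against 86.5% for arrays without any deletion peak, and an open reading frame of at least 1000 codons followed 74.8% of them against 40.7%. A longer array has more room for a peak, and its part in these shares was not tested. Arrays with a peak of only 1 deletion list, or with separate peaks of both, had a median identity of 96.9% for unit 1. Of those 775, 65.03% were followed by such a reading frame. At unit 2 it followed 69.7% of the arrays with a shared peak and 61.5% of those with such other peaks. The order was reversed at unit 3, at 52.8% of 36 and 64.7% of 85 arrays.

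**Figure D2:**
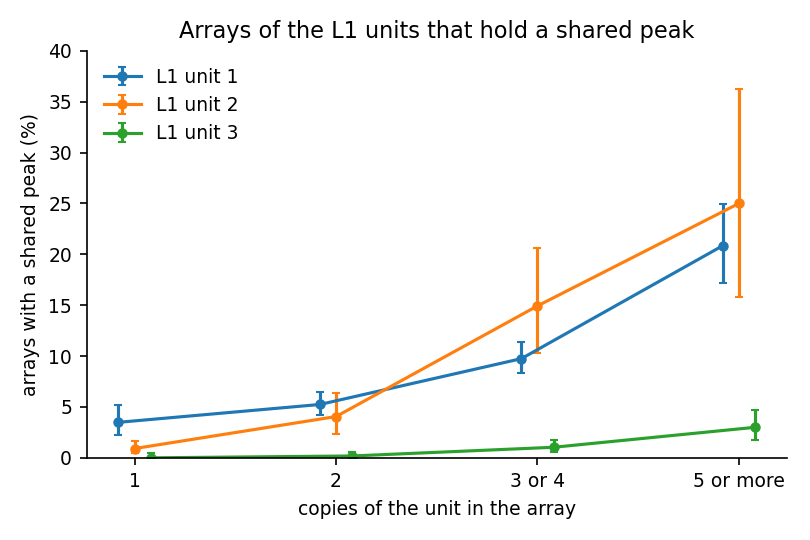
Share of the genome's arrays of each L1 unit that hold a shared peak (%, vertical axis) by the number of copies of the unit in the array (horizontal axis); lines join the points and bars are exact 95% intervals. The share is 20.9% for unit 1 in arrays of 5 or more copies, from 19 of 76 arrays for unit 2, and 3.00% for unit 3.

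The middle of a shared peak was usually not unique in the genome. Its middle 32 bases were found more than once, on either strand, for 539 of 652 (82.7%), with a median of 88.5 copies, against 60.9% of the other 116HG peaks and 47.4% of the other NSC peaks. With the middle 50 bases the shares were 74.1, 54.6 and 41.9%. The WT lists differed among themselves in this: 87.4% of WT NSC peaks had middle 32 bases found more than once, with a median of 17.0 copies, and 18.1% of the peaks of WT 116HG replicate 1. How the aligner placed reads with several equal matches is not given in the sources used here.

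The deletion peaks were richer in G and C than each WT list. The middle 300 bases of the shared peaks had a median of 63.0% G and C (quartiles 59.3 and 66.0%) and 17.0 CpG dinucleotides, against 41.7% and 2.0 in the genome windows. WT NSC peaks had quartiles of 36.0 and 45.0% G and C and a median of 2.0 CpG, close to the genome. WT 116HG replicate 1 lay between, at a median of 46.7% (quartiles 39.7 and 54.0%) and 4.0 CpG. The other 116HG and other NSC peaks were nearly as rich as the shared peaks, at 61.7 and 62.0% with 16.0 CpG each. At least 10 CpG were present in 84.5% of the shared peaks, 74.6% of the other 116HG peaks, 74.9% of the other NSC peaks, 3.43% of WT NSC peaks, 18.5% of the peaks of WT 116HG replicate 1 and 2.20% of genome windows. Composition was high also away from the L1 units: the 166 shared peaks with no unit had a median of 58.0% and 10.0 CpG, and 51.8% of them held at least 10.

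**Figure D3:**
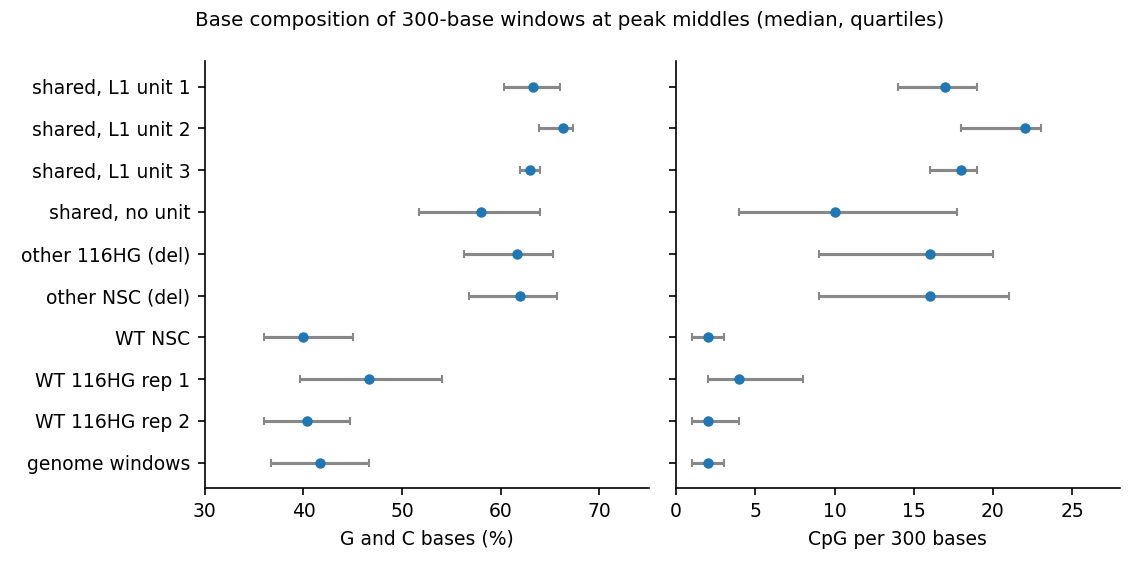
Median (points) and quartiles (bars) of the percentage of G and C bases (left) and of the number of CpG dinucleotides (right) in 300-base windows at the middle of peaks, by unit for the shared peaks and for the other lists, with all 300-base windows of the genome last. Every deletion set lies at or above 58.0% G and C, WT 116HG replicate 1 at 46.7%, and the other WT lists and the genome at or below 41.7%.

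The folds over input are part of the choice of peaks, since every peak had to pass 20-fold, and are given as a description. The shared peaks had a median of 24.0-fold (20.0 to 59.9) in the 116HG list and 26.3-fold (20.0 to 71.8) at their NSC partners, where the partner with the highest fold was taken for the 17 with more than 1. The ratio of the 116HG to the NSC fold had a median of 0.914 and ranged from 0.433 to 1.66. It was below 1 at 484 peaks and above 1 at 175 (26.6%). Only 65 were at least 1.5-fold apart, 60 of them higher with NSC oligos. The ratio also carries how each library was scaled to the input, so it does not compare amounts of DNA retrieved. By unit the median ratio was 0.914 at unit 1, 0.977 at unit 2, 0.853 at unit 3 and 0.914 at the peaks with no unit. Across the 659 peaks the folds had a Spearman's rho of 0.505, as a description of peaks that share 2 libraries and 1 input.

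**Figure D4:**
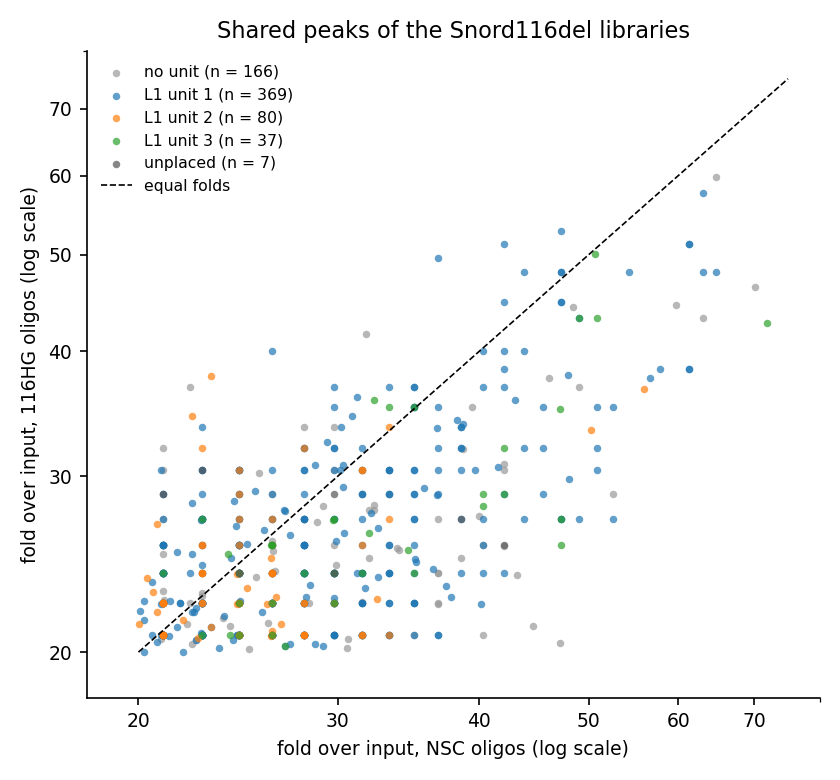
Fold over input with NSC oligos (horizontal) and with 116HG oligos (vertical, both log scales) of each shared peak, coloured by the unit it lies over, with the line of equal folds. Of the 659 points 484 lie below the line; the rows and columns of points come from the few steps that the deposited folds take.

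Strong peaks were shared more often than weak ones, which the rule itself favours. A shared peak had to pass 20-fold in both lists, and a peak near that cut in 1 list can fall below it in the other. The shares are therefore a description. Of the 116HG list 80.6% of the upper 320 peaks were shared, then 50%, 42.2% and 33.1% of each following 320, and 93 of the 100 strongest. In the NSC list, cut the same way into 4 parts, the shares were 45.7, 15.1, 9.37 and 8.42%, with 83 of the 100 strongest. The strongest shared peaks were mostly L1: of the 10 with the highest 116HG fold, 8 lay at unit 1 and 1 at unit 3. After chrX:41033193-41033471 these were chr17:19240748-19241007 with 52.8-fold (47.3 with NSC oligos), then chr5:28920101-28920479, chr9:52557798-52558182 and chr16:96004302-96004573 with 51.2-fold each (42.0, 61.3 and 61.3). The unit 3 peak chr7:92908752-92909048 had 50.1-fold (50.6), and at unit 1 chr4:53405511-53405817 had 49.6 (36.8), chr4:12886688-12887046 had 48.0 (54.3) and chr16:54868153-54868486 had 48.0 (43.8). Of these, chr5:28920101-28920479 lay in an intron of the lincRNA 9530036O11Rik and chr4:12886688-12887046 in an intron of the lincRNA Gm11818, and the others had no annotated gene within 2 kb. The strongest of all, chr18:13107649-13107901, with 59.9-fold and 64.8-fold, held no unit, resembled no other shared peak and overlapped a peak of WT 116HG replicate 2.

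Few shared peaks had a small overlap, but 82 of the other 116HG peaks had an NSC peak within 1 kb. The smallest overlaps that made a peak shared were 1, 1, 16, 53 and 53 bp, and the nearest peaks left out had gaps of 21, 22, 25, 25 and 26 bp. The median overlap was 267 bp, or 100% of the shorter peak, and the middles lay a median of 39 bp apart. The shared peaks had a median width of 353 bp.

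The peaks that the deletion libraries shared were seldom peaks in WT brain. Of the 659, 15 (2.28%, interval 1.28 to 3.73%) overlapped a peak of WT NSC, 33 (5.01%) one of WT 116HG replicate 1 and 32 (4.86%) one of replicate 2, and 57 (8.65%, 6.62 to 11.1%) one of any WT list. A peak shared by both oligo sets in deletion brain was thus shared by both oligo sets in WT brain in 9 of 659 cases (1.37%). The other deletion peaks met any WT list about as often or more, at 10.6% of the other 116HG peaks and 14.3% of the other NSC peaks. This order held for replicate 1, the longest list, at 8.70 and 13.3%. It was reversed for WT NSC, at 0.644 and 0.510%, and for replicate 2, at 1.93 and 1.38%. Both oligo sets in WT brain met 0.161 and 0.291% of these other peaks, also below the shared peaks. Read from the WT side, the 15, 38 and 32 WT peaks that lie over a shared peak are 0.411% of WT NSC, 0.0487% of replicate 1 and 0.287% of replicate 2.

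The WT overlap lay mainly with the shared peaks that hold none of the 3 units. Of the 166 with no unit 44 (26.5%, 20.0 to 33.9%) overlapped a WT list, against 5 of 369 at unit 1 (1.36%), 3 of 80 at unit 2 (3.75%) and 5 of 37 at unit 3 (13.5%). Replicate 1 met none of the 486 L1 peaks and 33 of the 166 without a unit. Those shared peaks that were alike to no other, 81 in number, met a WT list in 26 cases (32.1%). At the 33 peaks that replicate 1 shared, its own fold over input had a median of 109.6, against 55.3 over its whole list.

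The 4 shared peaks found in all 3 WT lists were all without a unit. They were chr17:8145127-8145313 in an intron of Rsph3a, chr2:90235189-90235368 with no gene within 2 kb, chr7:147407124-147407301 in an intron of Cd163l1 and chr9:118583781-118584211 in an intron of Itga9, which encodes an integrin subunit. Their folds in deletion brain were 27.0, 28.1, 30.9 and 22.3 with 116HG oligos and 28.8, 32.3, 42.0 and 36.8 with NSC oligos. The WT NSC folds were 21.6, 26.6, 31.4 and 32.7. In WT 116HG replicate 1 they were 243.2, 226.3, 29.8 and 67.1, the first and second far above the median of 55.3 over its list. The median of the WT NSC list was 27.1. Folds also carry how each library was scaled to the input, so they do not compare amounts of DNA retrieved between libraries. The peak in Cd163l1, with the highest 116HG fold of the 4 in deletion brain, is printed as an example of a sequence that was a peak in every list. It is a tandem repeat of 6 bases, with each run of AGAGGCAGAGGC in capitals.
chr7:147407124-147407301: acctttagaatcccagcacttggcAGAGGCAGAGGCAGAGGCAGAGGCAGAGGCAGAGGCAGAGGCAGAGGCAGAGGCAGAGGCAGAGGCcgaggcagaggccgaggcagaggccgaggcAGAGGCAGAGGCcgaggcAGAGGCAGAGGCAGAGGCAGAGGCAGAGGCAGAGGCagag
On either strand this repeat was in the middle 300 bases of 6 shared peaks (0.920%) and of 0.190% of genome windows. It was in 0.808% of the other 116HG peaks, 0.533% of WT NSC peaks and 0.966% of the peaks of WT 116HG replicate 2. The family of 6 shared peaks around it had a median of 26.4-fold with 116HG and 32.4-fold with NSC oligos, and 2 of them met a WT list.

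The family of 6 formed by a repeat of 4 bases is shown by the middle 300 bases of its strongest peak, chr5:90309268-90309614, at chr5:90309292-90309591, with CTGCCTGCCTGC in capitals.
chr5:90309292-90309591: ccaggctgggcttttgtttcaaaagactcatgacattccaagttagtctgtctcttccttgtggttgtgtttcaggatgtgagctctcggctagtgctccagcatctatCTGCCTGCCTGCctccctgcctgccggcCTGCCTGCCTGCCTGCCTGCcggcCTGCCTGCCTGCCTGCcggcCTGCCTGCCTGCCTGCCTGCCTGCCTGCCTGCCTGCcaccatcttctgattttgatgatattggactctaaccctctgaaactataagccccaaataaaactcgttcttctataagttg
This peak was 28.8-fold over input with 116HG and 31.5-fold with NSC oligos. The letters CTGCCTGCCTGC were in 7 shared peaks (1.07%) against 0.0876% of genome windows, 0.622% of the other NSC peaks and 0.0592% of WT NSC peaks, and none of the 6 in the family met a WT list. The simple repeat ACACACACACAC was not richer in the shared peaks, at 0.920% against 4.36% of genome windows.

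A further strong peak without a unit, chr2:73705905-73706070, lay in an intron of Atf2, which encodes a transcription factor. It was 46.4-fold over input with 116HG oligos, 70.1-fold with NSC oligos and 677.2-fold in WT 116HG replicate 1, the highest fold of that replicate at any shared peak. Its sequence is printed because it reads, from general knowledge, as the 3' end of 28S ribosomal RNA.
chr2:73705905-73706070: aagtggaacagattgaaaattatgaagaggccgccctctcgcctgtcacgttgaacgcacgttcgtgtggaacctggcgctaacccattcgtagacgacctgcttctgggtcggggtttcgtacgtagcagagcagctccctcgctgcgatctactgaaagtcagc

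Most shared peaks were scattered. Of all 659, 579 had no other within 10 kb and 30 pairs did. A group of 3 at chr17:8145127-8149959 in introns of Rsph3a met WT 116HG replicate 1 at each of its peaks, with 243.2, 174.4 and 95.1-fold there. A group of 3 at chr5:128356186-128357546 lay over unit 2 in an intron of Tmem132d, a membrane protein gene, and met no WT list. Of the 49 on chromosome X 46 lay at an L1 unit. None lay on Y, 5 lay on unplaced sequence of Y and 2 on unplaced sequence of chromosome 17.

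Shared peaks lay mostly outside genes. By its middle base 34.5% (30.9 to 38.3%) were inside a GENCODE gene, 5.98% in an exon, and 14.0% within 5 kb of a transcription start site, at a median distance of 36.6 kb. The other 116HG peaks were inside genes in 49.9%, in exons in 19.1% and within 5 kb of a start site in 31.7%, and the other NSC peaks in 58.5, 26.3 and 44.5%. The peaks at L1 units were placed alike in all 3 sets. Of the 486 shared peaks there 26.3% were inside genes, 0 in an exon (up to 0.756% by the interval) and 4.32% within 5 kb of a start site, and of the 948 other NSC peaks at L1 units 237 were inside genes, 0.105% in an exon and 4.64% within 5 kb of a start site. Away from the units the shared peaks still had lower shares in genes and exons. Their intervals overlap those of the other 116HG peaks, which does not show that the shares agree. They lie below those of the other NSC peaks. Of the 166 shared peaks with no unit 58.4% were inside genes (50.5 to 66.0%), 23.5% in an exon (17.3 to 30.7%) and 42.2% near a start site. The 340 other 116HG peaks with no unit had 69.1% (63.9 to 74.0%), 34.7% (29.65 to 40.03%) and 54.7%, and the 1783 other NSC peaks with no unit had 76.3, 40.2 and 65.7%. This split was added after the values were seen. Inside protein-coding genes, L1 arrays with a shared peak ran antisense to the gene in 64 of 111 (57.7%, 47.9 to 67.0%) and those without in 64.9% (62.6 to 67.1%), intervals that overlap.

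The genes with a shared peak in an exon were a mixed set. They included the replication-dependent histone genes Hist1h2ah, Hist1h2ai and Hist1h3a, which have near-identical copies, the actin gene Actg1, the GATA transcription factor gene Gata2 and the pacemaker channel gene Hcn4. Their folds were 22.4 and 29.8 (116HG and NSC) at Hist1h2ah, 20.8 and 24.5 at Hist1h2ai, 20.8 and 24.5 at Hist1h3a, 22.4 and 24.5 at Actg1, 22.4 and 21.0 at Gata2, and 20.8 and 21.0 at Hcn4. These genes were picked after their values were seen, and other exon peaks were stronger, such as 33.6 and 29.8 at Cwc22, a splicing factor gene. Of the gene lists (11 core clock genes, 7 genes of the study, 7 genes of the Prader-Willi domain of which 5 were annotated, 6 multicopy genes of which 3 were annotated and 10 immediate early genes), none had a shared peak within 2 kb. The same held for all but 273 of the 33924 annotated genes (0.805%), so nothing is read from the 0 of 36.

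Cortex RNA was read at the genes within 2 kb of a shared peak. The 10297 genes whose 4 group values average 1 FPKM or more are the tested genes, compared by fold alone. A gene counts as higher or lower in Snord116del if FPKM + 1 is 1.5-fold or more apart and the larger value reaches 1 FPKM. Markers of neurons, astrocytes, oligodendrocytes and microglia were all present: Snap25 was at 481 FPKM in WT at Zt+6 and Csf1r at 7.09. The markers differed between groups, Syt1 from 42.8 in WT to 134.0 in Snord116del at Zt+6 and Aqp4 from 2.29 to 9.57, and their part in the values below was not tested. The Snord116 row is listed at 0 in all 4 groups and checks nothing.

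Of the 273 annotated genes within 2 kb of a shared peak 120 were tested. At Zt+6, 79 of them (65.8%) were higher in Snord116del and 5 (4.17%) lower, where 49.3% of all tested genes were higher and 7.62% lower, with a median log2 difference of 0.91 against 0.57. At Zt+16, 9 (7.5%) were higher and 1 lower, against 19.0% and 0.204% over the whole table, with medians of 0.27 and 0.35. After scaling that gave all 4 groups 1 median, 30.8% were higher and 13.3% lower at Zt+6, against 15.0 and 24.4% of all tested genes. As deposited, of the genes at L1 units 56 of 68 (82.4%) were higher at Zt+6 and 1 was lower, whereas 24 of 54 genes (44.4%) at the other shared peaks were higher (2 genes had both kinds).

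Genes with a shared peak were long, with a median of 204.1 kb against 23.0 kb for the other tested genes. Read beside all tested genes of the same length class, a reading added after the values were seen, their shares at Zt+6 were close to the background. Of genes of 200 kb or more, 50 of 61 with a shared peak were higher at Zt+6 (82.0%) and 80.9% of all 632 were. From 50 to 200 kb, 16 of 23 were higher (69.6%) beside 75.9%, and under 50 kb 13 of 36 (36.1%) beside 38.2%. At Zt+16 the shares were 1.64 beside 4.75%, 4.35 beside 6.21% and 19.4 beside 24.4%. For the 54 long genes at L1 units it was 85.2% at Zt+6, and after that scaling 27 of 54 were higher beside 41.0%.

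**Figure D5:**
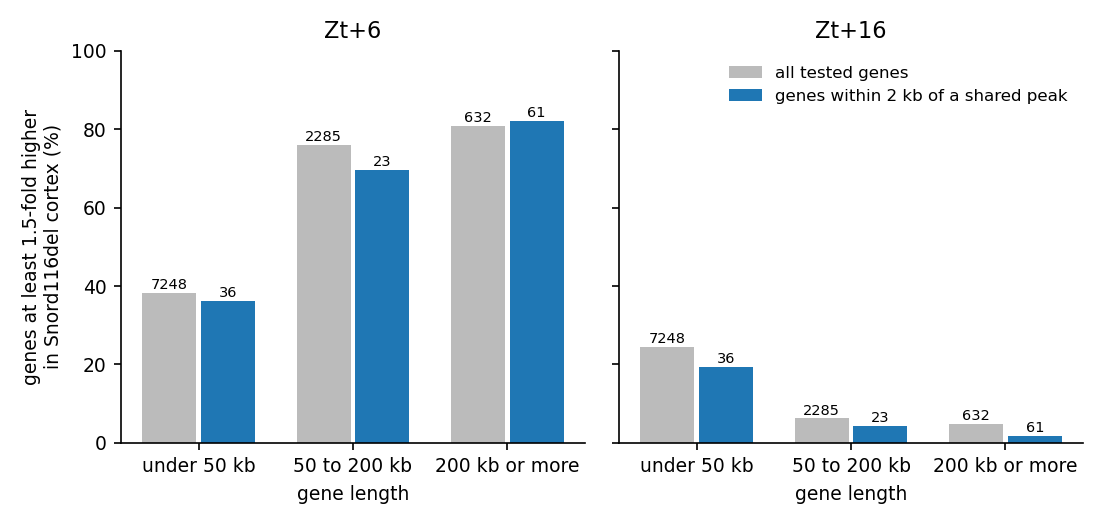
Share of genes at least 1.5-fold higher in Snord116del than in WT cortex (%, vertical axis) at Zt+6 (left) and Zt+16 (right) by gene length, for all tested genes (grey) and those within 2 kb of a shared peak (blue); numbers above the bars are genes. In genes of 200 kb or more at Zt+6 the bars are 80.9 and 82.0%.

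The 8 largest differences upward at Zt+6 were all at genes with an L1 peak in an intron, as were most of the 79 higher genes, of which 56 were at L1 units. Most of the 8 are known for roles in neurons, but such genes were not counted among all tested genes. Dgkb, a diacylglycerol kinase gene, had 2.31 FPKM in WT cortex at Zt+6 beside 15.1 in Snord116del cortex, and 0.680 beside 0.862 at Zt+16. Pcdh7, a protocadherin gene, stood at 3.33 and 18.7, then 1.01 and 1.31. Elavl4, which encodes a neuronal RNA-binding protein, stood at 4.38 and 19.5, then 2.53 and 3.69. For these the higher value lay in Snord116del at both times, and it was past 1.5-fold at Zt+6 only. Lrrc7, of the postsynaptic density, went from 3.48 to 16.1 FPKM at Zt+6, the adhesion gene Cadm2 from 3.61 to 15.5, the sodium channel gene Scn1a from 2.21 to 10.3, the synaptic adhesion gene Lrfn5 from 1.35 to 7.17 and Mtap2, which encodes a microtubule-associated protein of dendrites, from 28.4 to 96.4. On the log2(FPKM + 1) scale these 8 differences, picked as the largest, ran from 1.73 to 2.28. Their peaks ran from 24.0-fold at Dgkb, Elavl4 and Lrrc7, the median of the shared peaks, to 35.2-fold at Cadm2 with 116HG oligos.

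Lower at Zt+6 were 5 genes. Celf2, an RNA-binding protein gene with an L1 unit 1 peak of 44.8-fold in an intron, is listed at 0 FPKM in Snord116del at Zt+6 beside 9.65 in WT, and at 10.3 beside 7.05 at Zt+16, so no fold is given at Zt+6. The ribosomal protein gene Rpl32 had 632.4 FPKM in WT cortex at Zt+6 beside 302.9 in Snord116del cortex, but 1068 beside 1547 at Zt+16. Psmd8, of the proteasome, stood at 22.2 and 13.9, then 30.2 and 41.2. The histone gene Hist1h2ai stood at 2.45 and 1.22, then 4.31 and 4.25. The fifth, 0610009L18Rik, lies beside Actg1 and stood at 10.1 and 3.75 at Zt+6. At Zt+16 the largest upward differences were 1110051M20Rik (23.1 and 41.2 FPKM), 0610009L18Rik (16.2 and 28.2), Kifc2, a kinesin gene (76.2 and 126.6), and Nsg1, a neuronal endosome gene (62.6 and 104.8), none of them at an L1 unit, and none past 1.5-fold once the groups had 1 median. No gene other than a small RNA was past 1.5-fold lower at Zt+16.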

How the data were processed

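Analysed were the peak lists of 5 ChIRP libraries (brain) and 1 table of cortex RNA-seq. Per the methods and labels, the authors aligned ChIRP reads with Bowtie2 2.0.0 to mm9, called peaks with MACS 1.4.2 in each library against WT input and kept those with a false discovery rate under 5% and over 20-fold over input. The deposited ratio of each peak is its fold over input, and the list of WT 116HG replicate 2 lacks it. Cortex reads were processed by the authors with TopHat2 2.0.5 and Cuffdiff 2.0.2, and 1 FPKM value per gene and group of mice was deposited, which hides variation among mice. The deposited log2 fold changes, q-values and significance calls are the authors' own comparison and were not used.

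Shared peaks are peaks of the Snord116del 116HG list that overlap a Snord116del NSC peak by at least 1 bp. The rule, the lists and the gene lists were chosen with earlier results of these data known, and the units and motifs after the sequences were seen. Families were built with blastn 2.17.0 (alignments of at least 100 bp and 80% identity). A peak was at a unit where it overlapped a genome copy by at least 50 bp, and copies up to 500 bp apart formed an array. Genome sequence and GENCODE vM1 annotation were those of NCBIM37. By symbol, 21853 of the 23235 genes with FPKM values matched. Intervals are exact (Clopper-Pearson, 95%). No test was made, since the deletion libraries have no replicates. Fold differences are on the FPKM + 1 scale, which understates low genes.

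Named were the 10 shared peaks with the highest 116HG fold, those in all 3 WT lists, groups of at least 3 within 10 kb (2 are not reported here), and, among genes within 2 kb past the fold rule, the 8 highest and 8 lowest at Zt+6 and 4 and 4 at Zt+16, small RNAs left out. Code was tested on simulated data. Alternatives covered the overlap, the peak threshold, chromosomes, WT replicates, partner choice, placing of peaks, sequence windows, and the pseudocount, filter, scale, fold and distance of the RNA comparison. Analyses used Python 3.11.15, numpy 2.4.6, pandas 2.3.3, scipy 1.17.1, matplotlib 3.10.9 and samtools 1.23.1.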

Additional observations from a re-analysis of the deposited data

Results flagged for a closer look

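At 2 genes within 2 kb of a shared peak the difference between Snord116del and WT cortex was past 1.5-fold in opposite directions at the 2 times. For 0610009L18Rik the log2 difference was -1.23 at Zt+6 and 0.77 at Zt+16. The median over all tested genes at Zt+16 was 0.35. Once the groups had 1 median, 0610009L18Rik was no longer past 1.5-fold higher at Zt+16. For the small nucleolar RNA gene Snora7a, which lies in the Rpl32 region, the log2 difference was 0.73 at Zt+6 and -1.84 at Zt+16. At Zt+16 Snora7a is listed at 0 FPKM in Snord116del beside 2.58 in WT. The size of -1.84 therefore depends on the 1 added to each FPKM, and it is not read as a fold. Each of these log2 differences rests on 1 value per group, and the difference between the times was not tested.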

How the results depend on the processing

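No paired analysis was possible because the ChIRP lists were compared without a test and the RNA-seq table holds 1 value per group. Of 56 recomputed values, 33 stayed within 1.5 times (counts) or within their interval or spread. With a gap of up to 1 kb allowed, 57.9% of the 116HG peaks were shared and 12.3% of shared peaks met a WT list. With only peaks of at least 40-fold in both lists there were 27 shared peaks, 79.4% of that shorter 116HG list; 37.0% met a WT list, 22.2% were higher with 116HG oligos and 81.5% lay at L1 units. Without WT 116HG replicate 1 or 2, 5.92 and 6.53% met a WT list. With L1 copies of at least 90% identity, chosen after seeing the data, 64.0% of shared peaks lay at L1 units. Within 2 kb of a start site lay 10.1%, and 74.1% had middle 50 bases found more than once. Among the 120 RNA genes, a pseudocount of 0.1 gave 9 lower at Zt+6, and 22 higher and 2 lower at Zt+16. Scaling all groups to the same median gave 37 higher and 16 lower at Zt+6, and 0 higher and 2 lower at Zt+16. The 2-fold rule gave 3 lower at Zt+6 and 0 higher at Zt+16, and genes with the peak inside gave 3 lower at Zt+6 and 0 lower at Zt+16. Fewer genes or samples enter the 40-fold, replicate and inside-gene settings by construction; for the others the cause was not tested. The cut at 20-fold in the deposited lists limits what a missing overlap can show: a region just under it in 1 library counts as absent.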
